A study of Homo sapiens with 8 samples.

Results

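The genes of the proteasome were followed in MM.1S, an established human multiple myeloma (MM) cell line, as a list of 50 genes of 60671 in the tables. The list was set by gene name, with earlier results of these data known, and holds the subunits of the 20S core and the 19S regulatory particle, the immunoproteasome subunits, the activators, the assembly factors, and NFE2L1 with DDI2. All 50 names were found, each on 1 row, and all 50 had a mean of at least 1 TPM in some group and were tested. TPM is a measure of transcript abundance that is scaled by gene length and then to a common total in each sample. Wild-type cells in culture were collected after 12 h with vehicle, with FeAc (the iron compound of the study), with bortezomib (BTZ, a proteasome inhibitor used to treat MM), or with BTZ plus FeAc, and the labels give no doses. Each group had 2 samples of this 1 cell line, which the supplementary methods call biological replicates.

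The proteasome is the protease that degrades ubiquitin-tagged proteins. Its 20S core is a barrel of alpha rings and beta rings, with the cutting sites inside on the beta subunits encoded by PSMB5, PSMB6 and PSMB7, and the 19S particle on its ends binds, unfolds and feeds in the substrate. BTZ binds the PSMB5 site, and MM cells, which make large amounts of antibody protein, are known for their sensitivity to this class of drugs. When proteasomes are inhibited, the transcription factor NRF1, encoded by NFE2L1 and cut to its active form by the protease DDI2, is known to raise the genes of the proteasome through antioxidant response elements.

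Sample totals ran from 994968 to 996780 TPM, and 13020 to 13770 genes reached 1 TPM. The tables hold no read counts, so that the sequencing depth is unknown. Plasma cell and MM genes were expressed in all 8 samples, with 7.49 TPM for CD38 in a BTZ plus FeAc sample as the lowest value among 8 such genes and 893 TPM for XBP1 as the highest. Their summed level was 2326 to 2381 TPM in the 4 samples without BTZ and 1589 to 1951 TPM in the 4 samples with it. The summed level of 8 genes of other cell types (T cells, monocytes, fibroblasts, red cells, epithelium and B cells) was 13.1 to 16.6 TPM without BTZ and 10.2 to 14.6 TPM with it. Most of it was HBB, a hemoglobin gene, at 9.70 to 13.5 TPM without BTZ and 1.62 to 5.18 TPM with it, whereas COL1A1, a collagen gene of fibroblasts, was 0.69 to 1.00 and 3.02 to 4.89 TPM and EPCAM, of epithelium, was 0.51 to 1.27 and 2.38 to 3.19 TPM. In no sample did CD3E, CD14, LYZ, COL1A2 or MS4A1 pass 1.35 TPM. The part of these genes in the results below was not tested. Mitochondrially encoded genes took 8.16% to 14.3% of TPM without BTZ and 2.99% to 10.1% with it, and the part of this share in the results below was not tested beyond a rescaling without these genes, in which the median log2 fold change of the 50 genes was 0.83 for BTZ against vehicle.

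BTZ was compared with vehicle to ask how the transcripts of its own target complex changed. Of the 50 genes, 30 rose, 0 fell and 20 were not called, where a call needs an adjusted p under 0.05 over all genes and a fold change over 1.5. Among all 14812 genes tested, 6.27% were called higher and 5.89% lower. The median log2 fold change was 0.89 over the 50 genes and -0.06 over all genes tested. The rise lay in the standard subunits of the 20S core and of the 19S particle, of which 27 of 32 were called, whereas 3 of the 18 other genes were called: POMP, NFE2L1 and PSME4. In all 32 standard subunits both BTZ samples lay above both vehicle samples, a separation in that direction shown by 26.1% of all genes tested, and 35% of all genes lay lower in both. The groups with BTZ are in one deposited table and the groups without it in another, so that a difference between the tables and the effect of BTZ cannot be told apart.

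The number of calls rested on having both samples. It fell without either BTZ sample or either vehicle sample, as did the calls over all genes. The median log2 fold change of the proteasome genes was 0.88 without BTZ replicate 1 and 0.91 without BTZ replicate 2. It was 1.02 without vehicle replicate 1 and 0.71 without vehicle replicate 2, beside 0.89 in the reported fit. All 32 standard subunits kept a fitted value above 0 in each of 17 alternative fits, with a lowest value of 0.06. Most of these fits could not change a sign, because the groups did not overlap in these subunits. PSMC4 and PSMD11 were called in all 17.

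**Figure D1:**
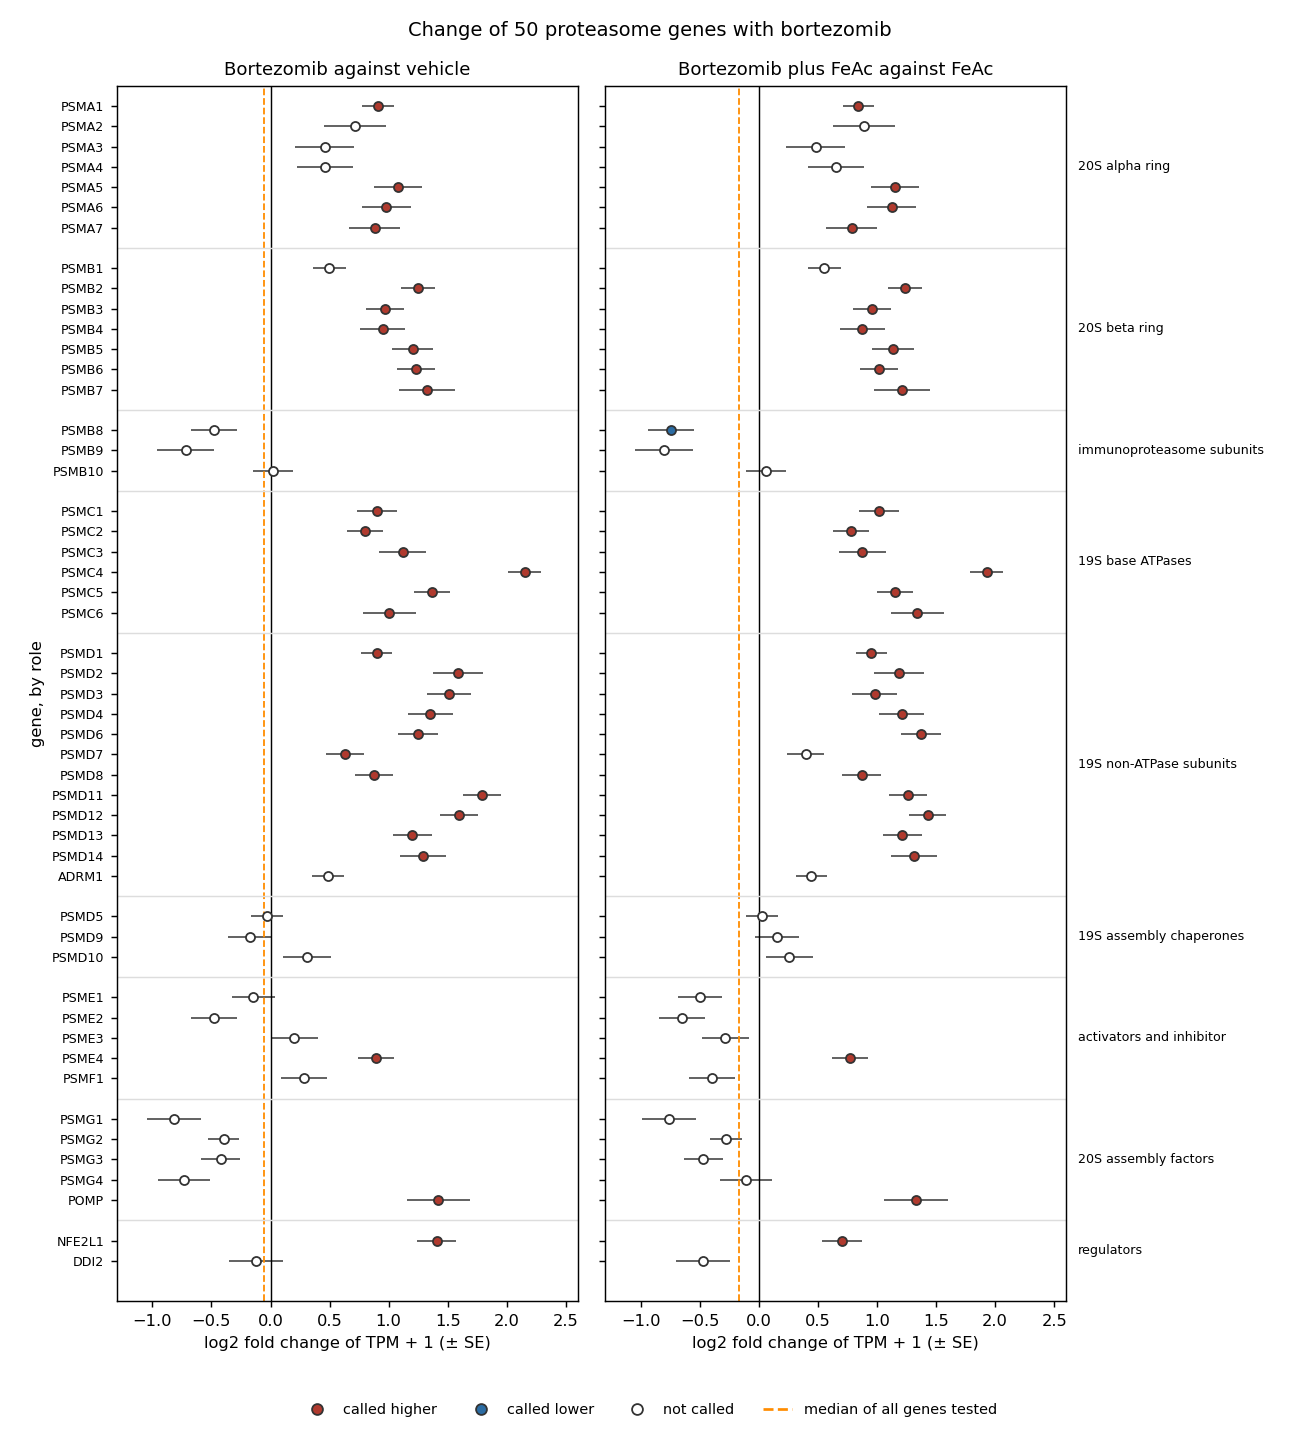
Log2 fold change of TPM + 1 for the 50 genes, by role, with bars of 1 standard error, for BTZ against vehicle on the left and BTZ plus FeAc against FeAc on the right. Filled points are called genes, and the dashed line is the median of all genes tested, at -0.06 on the left and -0.17 on the right. The 20S and 19S subunits lie to the right of 0 in both panels, and PSMC4 lies farthest out at 2.15 and 1.93.

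Levels of the 20S core genes differed widely before any treatment. With vehicle, the 14 standard core genes ran from 61.2 ± 8.25 TPM for PSMB5 (mean ± SD, n = 2) to 828 ± 119 TPM for PSMB4, a ratio of 13.5, although their proteins enter the barrel in equal numbers. The ratio was 11.2 with BTZ, and PSMB4 was again the highest and PSMB5 the lowest.

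Among the 7 alpha ring genes, which form the outer rings and gate the entrance, 4 rose with BTZ and 3 were not called. PSMA1 was 267 and 273 TPM with vehicle and 507 and 511 TPM with BTZ, with the samples of each group close together (log2 fold change 0.91, SE 0.13, adjusted p = 0.00767). PSMA5 was 78.8 and 58.5 TPM with vehicle and 147 and 142 TPM with BTZ (log2 fold change 1.08, SE 0.20, adjusted p = 0.0166). PSMA3 was 197 and 113 TPM with vehicle and 204 and 206 TPM with BTZ, so that the first vehicle sample nearly reached the BTZ samples (log2 fold change 0.46, SE 0.25, adjusted p = 0.256). PSMA2 and PSMA4, the other 2 that were not called, had log2 fold changes of 0.72 and 0.46 and the same spread between the vehicle samples, at 238 and 152 TPM for PSMA2 and at 675 and 430 TPM for PSMA4. Of all 50 genes, 37 were higher in vehicle replicate 1 than in replicate 2, by a median of 0.17 on the log2 scale, where the median over all genes was -0.09. Part of the exons of PSMA1, 24.7% of its bases, is shared with AC018523.2 on the same strand, and how the authors' counting divided such reads is not given in the sources used here.

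Of the 7 beta ring genes, 6 rose and PSMB1 did not pass. The 3 genes of the cutting sites rose by similar amounts. PSMB5, the chymotrypsin-like site that BTZ binds, on chromosome 14 from 23016543 to 23035230 (GRCh38), was 67.0 and 55.4 TPM with vehicle and 148 and 135 TPM with BTZ, a 2.30-fold difference with no overlap (log2 fold change 1.20, SE 0.18, adjusted p = 0.00778). PSMB6, the caspase-like site, was 291 and 276 TPM with vehicle and 686 and 651 TPM with BTZ (log2 fold change 1.23, SE 0.16, adjusted p = 0.00537). PSMB7, the trypsin-like site, was 290 and 205 TPM with vehicle and 640 and 589 TPM with BTZ (log2 fold change 1.33, SE 0.24, adjusted p = 0.0145). The non-catalytic subunit gene PSMB2 had the smallest adjusted p of the ring, with 81.2 and 80.5 TPM with vehicle and 197 and 190 TPM with BTZ (log2 fold change 1.25, SE 0.14, adjusted p = 0.00345). PSMB1, also non-catalytic, was higher in both BTZ samples, at 275 and 271 TPM against 207 and 181 TPM, but had a log2 fold change of 0.50 and an adjusted p of 0.0576.

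All 6 ATPase genes of the 19S base, whose products form the ring that unfolds substrates, rose. PSMC4, on chromosome 19 from 39971005 to 39981441, showed the largest change of the 50 genes: it was 79.8 and 86.0 TPM with vehicle and 376 and 366 TPM with BTZ, a 4.44-fold rise (log2 fold change 2.15, SE 0.14, adjusted p = 0.00109). PSMC5 was 178 and 182 TPM with vehicle and 492 and 440 TPM with BTZ (log2 fold change 1.36, SE 0.15, adjusted p = 0.0033). PSMC6 had the largest adjusted p of the ring, 0.0296, with 101 and 64.9 TPM with vehicle and 161 and 166 TPM with BTZ, where the gap between the vehicle samples was wide and the groups still did not overlap. By level, PSMC4 was the lowest of the 6 genes with vehicle, next to PSMC6 at the same 82.9 TPM, and with BTZ it was the third highest at 371 TPM. PSMC1, also called, shares 75.8% of its exon bases with NRDE2 on the opposite strand, and the library kit is not stated to keep strand.

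Of the 12 non-ATPase genes of the 19S particle, 11 rose. PSMD11, a lid subunit that helps hold the particle together, was 68.2 and 74.9 TPM with vehicle and 267 and 233 TPM with BTZ (log2 fold change 1.79, SE 0.16, adjusted p = 0.00174). PSMD12, another lid subunit, was 45.3 and 43.3 TPM with vehicle and 146 and 126 TPM with BTZ, a 3.02-fold rise (log2 fold change 1.60, SE 0.16, adjusted p = 0.00243). PSMD14, the deubiquitinase of the lid, was 168 and 120 TPM with vehicle and 346 and 352 TPM with BTZ (log2 fold change 1.29, SE 0.19, adjusted p = 0.00845). In each of these 3 genes the BTZ samples stood clear of the vehicle samples. PSMD2, a large scaffold subunit of the base, and PSMD3, a subunit of the lid, had log2 fold changes of 1.59 and 1.51. ADRM1, a ubiquitin receptor of the particle, was 202 and 182 TPM with vehicle and 277 and 259 TPM with BTZ, higher in both samples but not called (log2 fold change 0.48, SE 0.13, adjusted p = 0.0545).

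**Figure D2:**
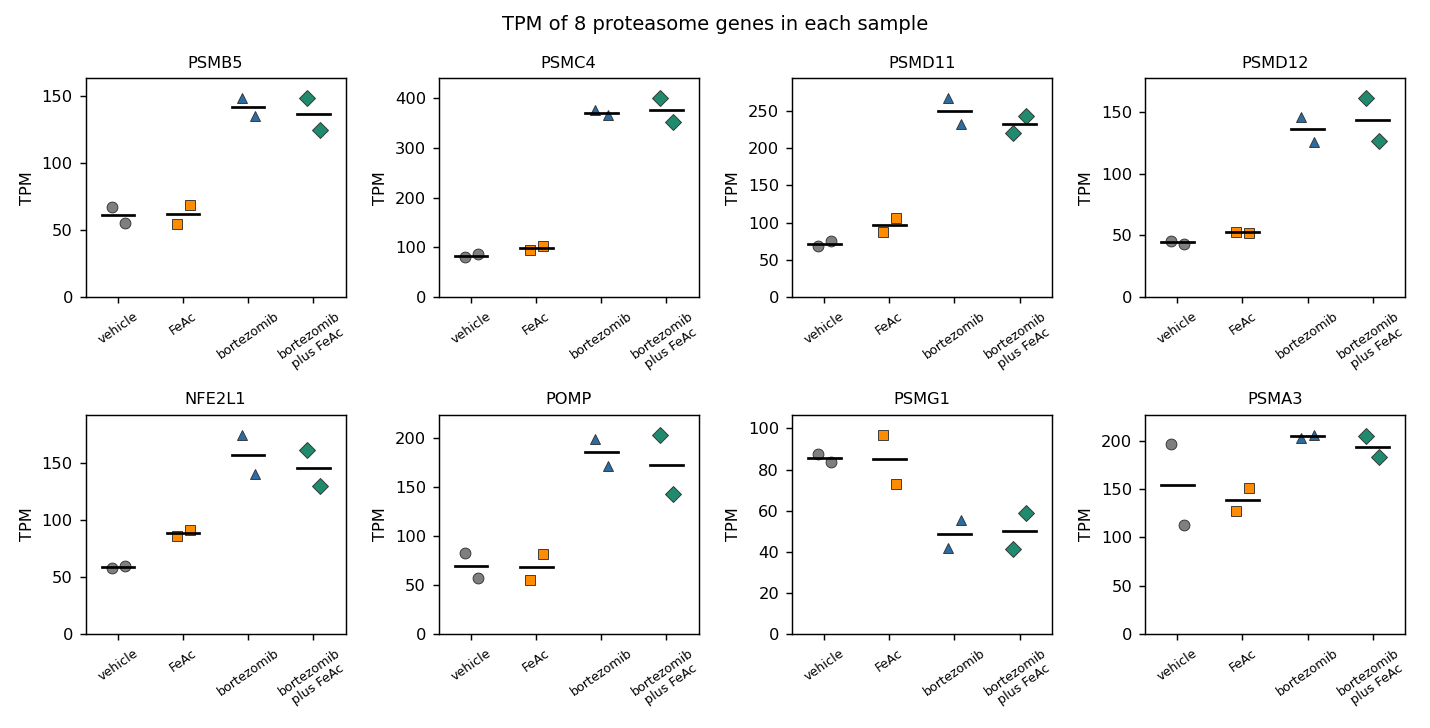
TPM of 8 genes in each of the 2 samples of a group, with a bar at the group mean and the axis from 0. PSMB5, PSMC4, PSMD11, PSMD12, NFE2L1 and POMP lie higher in all 4 samples with BTZ than in all 4 without it, PSMG1 lies lower, and 1 vehicle sample of PSMA3 (197 TPM) lies above a BTZ plus FeAc sample (183 TPM).

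The genes around the particle showed another picture. The chaperones that assemble the 19S base (PSMD5, PSMD9 and PSMD10) were not called. PSMD5 was 23.7 and 23.0 TPM with vehicle and 21.9 and 23.7 TPM with BTZ, with overlapping samples (log2 fold change -0.03, SE 0.14, adjusted p = 0.912). PSMD9 had a log2 fold change of -0.18 (adjusted p = 0.556) and PSMD10 one of 0.31 (adjusted p = 0.34). The SE of these 3 genes was 0.14 to 0.20, like that of the subunits.

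Among the assembly factors of the 20S core, POMP differed from the PSMG genes. POMP, the maturation factor that is the first substrate of each new core, was 82.7 and 56.6 TPM with vehicle and 199 and 172 TPM with BTZ, a 2.68-fold rise (log2 fold change 1.42, SE 0.27, adjusted p = 0.0174). PSMG1, part of the chaperone pair with PSMG2 that starts the alpha ring, was 87.5 and 83.5 TPM with vehicle and 41.7 and 55.6 TPM with BTZ, lower in both samples but not called (log2 fold change -0.81, SE 0.23, adjusted p = 0.0571). PSMG2 was 64.7 and 63.8 TPM with vehicle and 48.9 and 48.2 TPM with BTZ, also lower in both samples, by less (log2 fold change -0.40, SE 0.13, adjusted p = 0.0917). The second chaperone pair, PSMG3 and PSMG4, lay lower in both BTZ samples too, with log2 fold changes of -0.42 (adjusted p = 0.137) and -0.73 (adjusted p = 0.0693). Such a separation was common, since 35% of all genes tested lay lower in both BTZ samples. The sum of PSMG1 to PSMG4 was 233 and 214 TPM with vehicle and 140 and 154 TPM with BTZ. PSMG1 passed the call in 4 of 17 alternative fits and PSMG4 in 2. The ratio of POMP to PSMG1 was 0.945 and 0.678 with vehicle, and with BTZ it was 4.77 and 3.08.

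The immunoproteasome genes, whose products replace the 3 cutting subunits after interferon and in cells of the immune system, did not rise. PSMB8 was 66.5 and 62.0 TPM with vehicle and 44.7 and 47.1 TPM with BTZ, lower in both (log2 fold change -0.48, SE 0.19, adjusted p = 0.148). PSMB9 was 69.0 and 59.4 TPM with vehicle and 39.4 and 37.6 TPM with BTZ, also lower in both (log2 fold change -0.72, SE 0.24, adjusted p = 0.0941). Of all genes tested, 35% lay lower in both BTZ samples. PSMB10 was 157 and 149 TPM with vehicle and 159 and 152 TPM with BTZ, where the groups overlap (log2 fold change 0.02, SE 0.17, adjusted p = 0.959). The standard partners rose at the same time. PSMB8 was 0.991 and 1.12 times PSMB5 with vehicle and 0.302 and 0.348 times PSMB5 with BTZ. PSMB9 was 0.237 and 0.215 times PSMB6 with vehicle and 0.0574 and 0.0578 times PSMB6 with BTZ, and PSMB10 was 0.542 and 0.725 times PSMB7 with vehicle and 0.248 and 0.258 times PSMB7 with BTZ. All 3 ratios were thus lower in both BTZ samples. PSMB8 shares 20.6% of its exon bases with PSMB8-AS1 on the opposite strand, and PSMB10 shares 34.8% of its exon bases with AC040162.1 on the same strand.

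**Figure D3:**
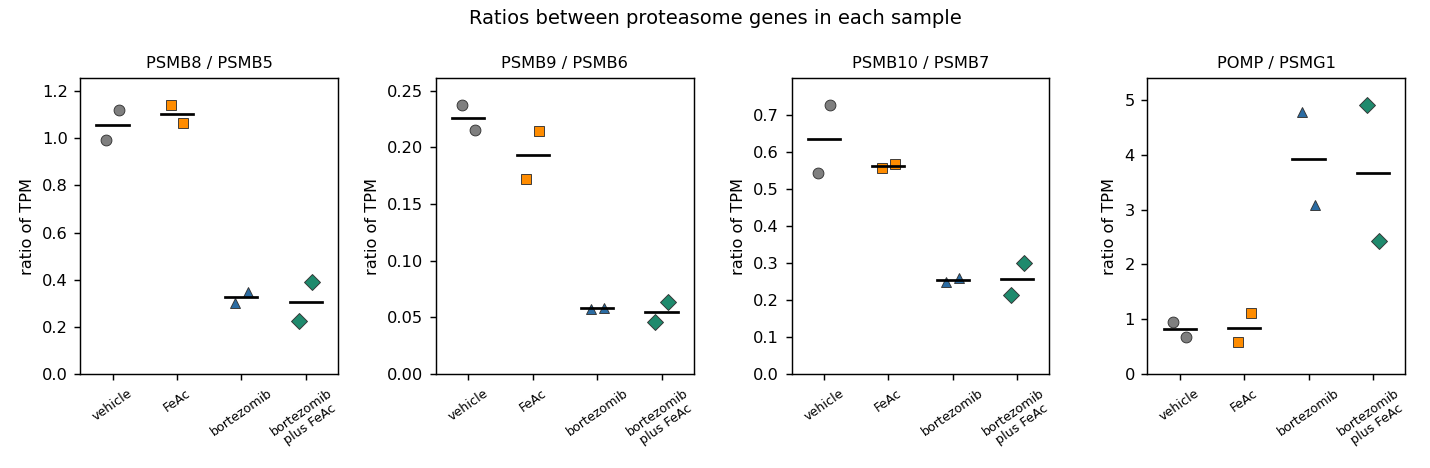
Ratio of TPM between an immunoproteasome gene and the standard gene it replaces, and between POMP and PSMG1, in each sample, with a bar at the group mean. The first 3 ratios are lower in all 4 samples with BTZ and the ratio of POMP to PSMG1 is higher, at 2.43 to 4.91 against 0.571 to 1.11.

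Of the activators and the inhibitor, PSME4 alone passed. PSME4, the large cap protein PA200, was 27.3 and 31.6 TPM with vehicle and 55.3 and 55.4 TPM with BTZ (log2 fold change 0.89, SE 0.15, adjusted p = 0.0131). The interferon-inducible activator genes PSME1 and PSME2 had log2 fold changes of -0.15 (adjusted p = 0.634) and -0.48 (adjusted p = 0.144), and PSME2 was 231 and 207 TPM with vehicle and 153 and 160 TPM with BTZ. PSME3, the nuclear activator, had a log2 fold change of 0.20 (adjusted p = 0.542), and PSMF1, an inhibitor of the core, had one of 0.28 (adjusted p = 0.369).

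NFE2L1, on chromosome 17 from 48048329 to 48061487, was 57.7 and 59.4 TPM with vehicle and 175 and 140 TPM with BTZ, a 2.65-fold rise in mRNA (log2 fold change 1.41, SE 0.17, adjusted p = 0.00377). DDI2, the protease that activates its product, was low and overlapped between the groups, at 10.4 and 14.6 TPM with vehicle and 10.6 and 12.0 TPM with BTZ (log2 fold change -0.12, SE 0.23, adjusted p = 0.762). RNA does not show how much NRF1 protein was cut or active.

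Summed over genes, the 14 standard core genes took 0.432% and 0.337% of TPM with vehicle and 0.729% and 0.695% with BTZ, and the 18 genes of the 19S particle took 0.287% and 0.251% with vehicle and 0.663% and 0.613% with BTZ. The 50 genes together took 0.851% and 0.716% of TPM with vehicle and 1.53% and 1.44% with BTZ. The 3 immunoproteasome genes took 0.0294% and 0.0271% with vehicle and 0.0244% and 0.0238% with BTZ. TPM gives a share of transcripts, so that a change in RNA per cell cannot be seen.

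**Figure D4:**
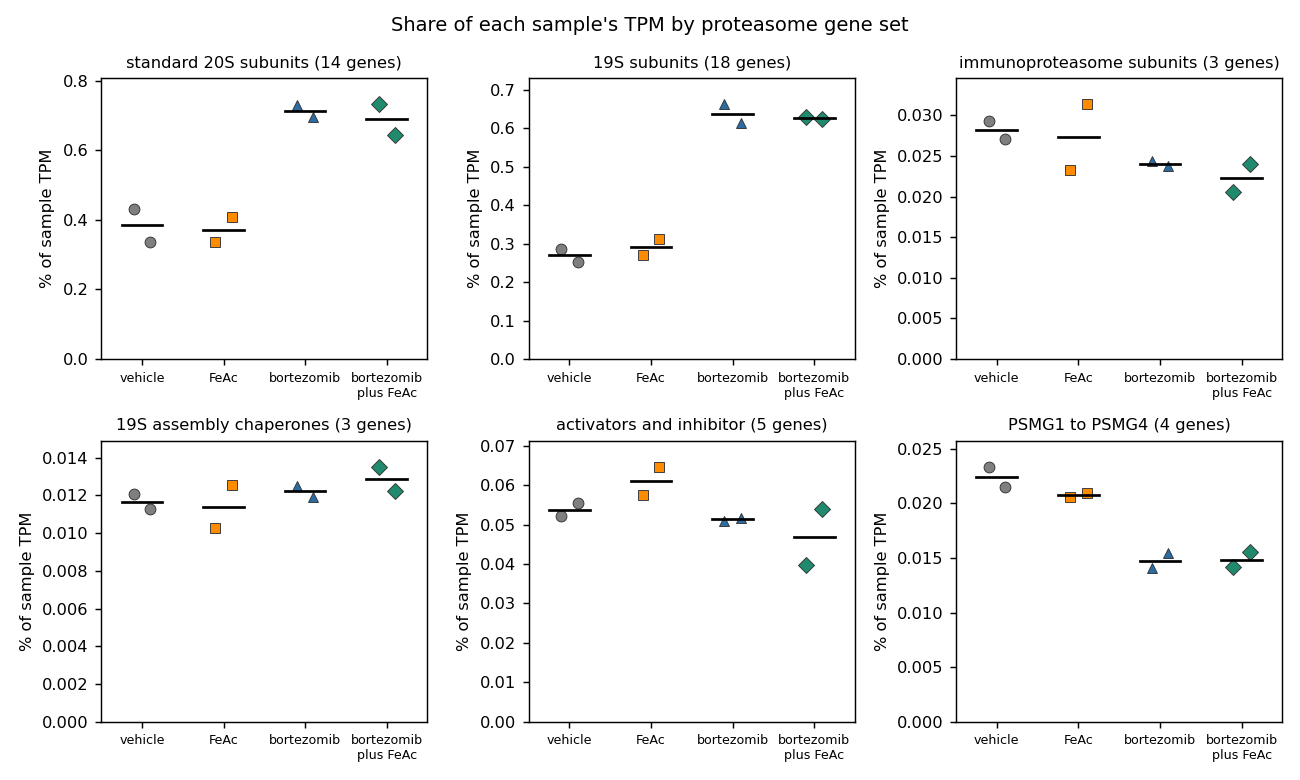
Share of each sample's TPM, in percent, taken by the summed genes of 6 sets, with a bar at the group mean and the axis from 0. The 14 core genes and the 18 genes of the 19S particle lie higher in all 4 samples with BTZ, PSMG1 to PSMG4 lie lower (0.0141% to 0.0155% against 0.0206% to 0.0234%), and the 19S assembly chaperones overlap.

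BTZ plus FeAc was compared with FeAc to ask the same question in iron-treated cells. Of the 50 genes, 29 rose, 1 fell and 20 were not called, against 4.94% called higher and 8.86% lower among all genes tested. The median log2 fold change was 0.86 over the 50 genes and -0.17 over all genes. This comparison shares no sample with that of BTZ against vehicle, but both come from 1 fit with a common estimate of the spread, so that their calls are not independent. In both, the groups with BTZ were deposited apart from those without it, so that a difference between the deposits would enter both. The 29 genes that rose were among the 30 that rose with BTZ against vehicle, and the gene called only there was PSMD7 (log2 fold change 0.63 there and 0.39 here, adjusted p = 0.135). All 32 standard subunits again lay higher in both samples with BTZ, beside 19.4% of all genes, and 39.4% of all genes lay lower in both. Scaling the samples by the median of ratios moved the median of all genes by 0.18 in this comparison and the median of the 50 genes to 1.05, and the calls over all genes went from 732 higher and 1312 lower to 1063 higher and 850 lower.

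The count of 29 also rested on single samples and on the fit. It was 3 when only the 2 groups were fitted and 16 with no filter on low values. Of all genes, 89 and 339 were then called higher, beside 732 in the reported fit. The count also fell without either FeAc sample, either BTZ sample or BTZ plus FeAc replicate 1, as did the calls over all genes. The BTZ samples are not compared here and enter through the common estimate of the spread. PSMC4 was called in all 17 alternative fits, and all 32 standard subunits kept a fitted value above 0 in each, with a lowest value of 0.24. Here too, most of the fits could not change a sign, because the groups did not overlap in these subunits.

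The order of the changes was led by the same gene. PSMC4 was 93.7 and 102 TPM with FeAc and 400 and 353 TPM with BTZ plus FeAc (log2 fold change 1.93, SE 0.14, adjusted p = 0.00166). PSMD12 was 53.0 and 52.0 TPM with FeAc and 161 and 127 TPM with both agents (log2 fold change 1.43, SE 0.16, adjusted p = 0.00517). PSMB5 was 54.8 and 68.9 TPM with FeAc and 148 and 125 TPM with both (log2 fold change 1.13, SE 0.18, adjusted p = 0.0116). The groups stood apart in each of the 3 genes. PSMB2 was 91.8 and 75.9 TPM with FeAc and 194 and 202 TPM with both (log2 fold change 1.24, SE 0.14, adjusted p = 0.0053). PSMB6, PSMB7, PSMD11 and PSMD14 had log2 fold changes of 1.02, 1.21, 1.26 and 1.31, all called. The subunits that were not called were PSMA2, PSMA3, PSMA4, PSMB1, PSMD7 and ADRM1, of which PSMB1 passed the adjusted p, at 0.0401, with a fold change under 1.5.

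PSMB8 was the gene that fell: it was 62.5 and 73.4 TPM with FeAc and 33.2 and 48.5 TPM with BTZ plus FeAc, with no overlap (log2 fold change -0.74, SE 0.19, adjusted p = 0.0447). This call was lost in 12 of 17 alternative fits, where the adjusted p reached 0.203. PSMB9 was 49.3 and 77.6 TPM with FeAc and 29.7 and 41.3 TPM with both (log2 fold change -0.80, SE 0.24, adjusted p = 0.065), and PSMB10 had a log2 fold change of 0.06 (adjusted p = 0.831). The difference between PSMB8 in this comparison and in that of BTZ against vehicle was itself tested as the interaction, and it did not pass (-0.26 on the log2 scale, adjusted p = 0.983).

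POMP was 55.3 and 81.4 TPM with FeAc and 203 and 143 TPM with both (log2 fold change 1.33, SE 0.27, adjusted p = 0.023). PSMG1 was 96.8 and 73.2 TPM with FeAc and 41.4 and 58.8 TPM with both, lower in both samples and not called (log2 fold change -0.76, SE 0.23, adjusted p = 0.064). PSMG4 was 19.4 and 29.9 TPM with FeAc and 21.7 and 22.9 TPM with both, where the samples overlap (log2 fold change -0.11, SE 0.22, adjusted p = 0.766). PSME4 rose by 0.77 on the log2 scale (adjusted p = 0.0222), and PSME1, PSME2, PSME3 and PSMF1 had log2 fold changes of -0.50, -0.65, -0.28 and -0.40, none called. NFE2L1 was 85.9 and 91.2 TPM with FeAc and 162 and 130 TPM with both (log2 fold change 0.70, SE 0.17, adjusted p = 0.0347), a call that was lost in 10 of 17 alternative fits. DDI2 had a log2 fold change of -0.48 (adjusted p = 0.194).

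FeAc was compared with vehicle to ask whether iron alone moved these genes. None of the 50 genes was called by limma in either direction, and 2 had an unadjusted p under 0.05. Among all genes tested, 0.00675% were called higher and 0% lower, and 506 had an unadjusted p under 0.05. The paper reports far more genes changed in iron-treated MM.1S cells at the same limits, and the reason for this gap was not tested. With so few calls over all genes, the lack of calls here does not show that iron left the 50 genes unchanged. The median log2 fold change was 0.01 over the 50 genes and 0.08 over all genes, and it ran from -0.11 to 0.14 when each sample was left out. Both FeAc samples were above both vehicle samples in 10 genes and below both in 2, shares to be set beside 22.9% and 10.1% of all genes. NFE2L1 had the smallest p: the FeAc samples, at 85.9 and 91.2 TPM, lay above the vehicle samples, at 57.7 and 59.4 TPM (log2 fold change 0.59, SE 0.17, unadjusted p = 0.00854, adjusted p = 0.951). PSMD11 was 87.2 and 106 TPM with FeAc against 68.2 and 74.9 TPM with vehicle (log2 fold change 0.42, SE 0.16, unadjusted p = 0.0288, adjusted p = 0.951), and PSMF1 was 82.8 and 65.4 TPM against 49.5 and 58.2 TPM (log2 fold change 0.45, SE 0.20, adjusted p = 0.951). PSMB5 was 54.8 and 68.9 TPM with FeAc, around the 67.0 and 55.4 TPM with vehicle, and had a log2 fold change of 0.01 with an SE of 0.18. In 7 of the 50 genes FeAc replicate 1 was the higher of the 2 FeAc samples, so that this group was spread in the opposite direction to the vehicle group.

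BTZ plus FeAc was compared with BTZ to ask what iron added. None of the 50 genes was called by limma, and 0 had an unadjusted p under 0.05, while among all 14812 genes 0% were called in each direction and 373 had an unadjusted p under 0.05. Without a call over all genes, the lack of calls here does not show that iron added nothing in the 50 genes. The median log2 fold change was -0.05 over the 50 genes and -0.04 over all genes. Both samples with FeAc were higher in 2 genes and lower in 3, beside 8.82% and 13% of all genes. PSMC4 was 376 and 366 TPM with BTZ and 400 and 353 TPM with both, and PSMB5 was 148 and 135 TPM with BTZ and 148 and 125 TPM with both, where the samples interleave. PSMD9, the 19S chaperone, had the smallest p, at 44.0 and 35.1 TPM with BTZ and 50.5 and 51.7 TPM with both (log2 fold change 0.37, SE 0.18, adjusted p = 1). PSMF1 and PSMG4 followed, with log2 fold changes of -0.23 and 0.24.

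The interaction, the difference between the BTZ effect with FeAc and the BTZ effect without it, was tested across all 8 samples. None of the 50 genes was called by limma, and 3 had an unadjusted p under 0.05, beside 0% of all genes called higher, 0.00675% called lower and 348 with an unadjusted p under 0.05. The 3 genes were NFE2L1 (-0.70 on the log2 scale, SE 0.24), PSMF1 (-0.68, SE 0.28) and PSMD11 (-0.53, SE 0.22), with an adjusted p of 0.983 for each. With so few calls over all genes, the lack of calls does not show that the BTZ effect was the same with and without FeAc. The samples of the other 4 comparisons all enter this test, which is thus not independent of them. In NFE2L1 the 4 groups ranked from vehicle (58.5 ± 1.22 TPM) through FeAc (88.5 ± 3.75 TPM) to BTZ plus FeAc (146 ± 22.4 TPM) and BTZ (158 ± 24.5 TPM), and the last 2 groups overlap.

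Beyond the 50 genes, the pathway that leads to NRF1 was followed in 17 genes, of which DDI1 was listed at 0 in all samples and 16 were tested. With BTZ, 4 rose and 1 fell, beside 6.27% called higher and 5.89% lower of all genes tested, and the median log2 fold change was 0.24 beside -0.06 over all genes. MAFG, a small MAF protein that pairs with NRF1 on DNA, was 16.0 and 17.9 TPM with vehicle and 62.2 and 57.0 TPM with BTZ (log2 fold change 1.76, SE 0.14, adjusted p = 0.00166). VCP, the ATPase that pulls NRF1 out of the endoplasmic reticulum, was 191 and 231 TPM with vehicle and 461 and 450 TPM with BTZ (log2 fold change 1.11, adjusted p = 0.0134). NFE2L2, which encodes the related factor NRF2, rose by 0.77 and RAD23B, a shuttle factor for ubiquitinated proteins, by 0.59 on the log2 scale. NFE2L3, the third factor of the family, was the gene that fell, from 98.0 and 90.7 TPM to 34.0 and 41.0 TPM (log2 fold change -1.31, SE 0.25, adjusted p = 0.0175). NGLY1, which removes sugars from NRF1, and the ubiquitin ligase gene SYVN1 had log2 fold changes of 0.08 and 0.16 and were not called. In the comparison of BTZ plus FeAc with FeAc, 3 rose (MAFG, VCP and NFE2L2) and NFE2L3 fell, beside 4.94% and 8.86% of all genes.

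Of 18 proteasome-associated factors, PSMB11, the thymus-specific beta subunit, was listed at 0 in all samples, and of the 17 tested 8 rose and 2 fell with BTZ, where 6.27% of all genes rose and 5.89% fell. ZFAND5, which binds proteasomes and raises their activity, was 67.4 and 78.5 TPM with vehicle and 282 and 246 TPM with BTZ (log2 fold change 1.84, SE 0.17, adjusted p = 0.00174). TXNL1, a thioredoxin-like protein of the 19S particle, and USP14, the deubiquitinase on the 19S base, both had log2 fold changes above 1, at 1.22 and 1.23. UBQLN1, a shuttle factor, had one of 1.08. UCHL5, the other deubiquitinase of the particle, which docks on ADRM1, was 84.1 and 68.2 TPM with vehicle and 69.9 and 82.5 TPM with BTZ, with overlapping samples (log2 fold change 0.00, SE 0.16). ZFAND2A, a stress-induced partner of the 19S particle, was 26.4 and 21.3 TPM with vehicle and 502 and 338 TPM with BTZ (log2 fold change 4.06, SE 0.61, adjusted p = 0.00857). PSMA8, the testis-type alternative to PSMA7, went the other way, from 29.1 and 25.2 TPM to 9.77 and 13.1 TPM (log2 fold change -1.19, SE 0.26, adjusted p = 0.0287). With BTZ plus FeAc against FeAc, 7 rose and 2 fell, where 4.94% of all genes rose and 8.86% fell, and ZFAND2A spread widely between the samples with both agents, at 1160 and 239 TPM.

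Of 10 regulators of the immunoproteasome and genes of antigen processing, 0 rose with BTZ and 1 fell, a count near the 5.89% of all genes called lower. Of the 10 genes, 8 lay lower in both samples, a larger share than the 35% of all genes. TAP1, the peptide transporter gene that shares a promoter region with PSMB9, was 65.6 and 67.0 TPM with vehicle and 41.0 and 42.2 TPM with BTZ (log2 fold change -0.66, SE 0.15, adjusted p = 0.0301). NLRC5, the activator of class I genes, had a log2 fold change of -0.69 (adjusted p = 0.0743), and IRF1, a factor that drives PSMB9, had one of 0.39 (adjusted p = 0.242). With BTZ plus FeAc against FeAc, 0 rose and 3 fell (TAP1, NLRC5 and CIITA, the activator of class II genes), beside 8.86% of all genes called lower. In that comparison 7 of the 10 lay lower in both samples, beside 39.4% of all genes. The median log2 fold change of the 10 genes was -0.51 in the first comparison and -0.60 in the second, beside -0.06 and -0.17 over all genes.

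Because the standard subunits moved together and NRF1 is known to bind antioxidant response elements, the promoters of the 50 genes were searched for TGACNNNGC, the core letters of that element, on both strands. RefSeq promoter windows on build GRCh38.p14, from 250 bases before to 50 bases after the start, were held for 44 of the 50 genes, and PSMA7, PSMB1, PSMB6, PSMB7, PSMD4 and PSMG3 were not analysed here. The letters were found in 16 of 44 genes, 36.4%, and in 16.1% of the 27305 genes with a window. They were found in 7 of 26 genes that rose with BTZ and in 9 of 18 that were not called, a difference in shares that was not tested. The stretches below show the match in capitals with 10 bases on each side, 5′ to 3′ on the strand of the gene, first for 5 genes that rose and then for 3 that were not called, and all lie upstream of the start.
PSMD12: agacaaaaccTGACGCTGCaggctggagt
PSMB3: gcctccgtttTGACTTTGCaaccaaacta
PSMD3: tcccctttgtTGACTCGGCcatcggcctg
PSMC5: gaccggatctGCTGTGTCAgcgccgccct
PSME4: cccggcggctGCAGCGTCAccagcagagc
PSMA4: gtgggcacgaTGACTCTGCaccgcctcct
ADRM1: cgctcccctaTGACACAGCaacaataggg
PSMG1: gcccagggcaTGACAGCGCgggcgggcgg

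These stretches lie at chr17:67366724-67366752 on the minus strand for PSMD12, at chr17:38752627-38752655, chr17:39980760-39980788 and chr17:63827654-63827682 on the plus strand for PSMB3, PSMD3 and PSMC5, and at chr2:53971009-53971037 on the minus strand for PSME4. Those of PSMA4 and ADRM1 lie at chr15:78540650-78540678 and chr20:62302749-62302777 on the plus strand, and that of PSMG1 at chr21:39183616-39183644 on the minus strand. In PSMC5 and PSME4 the element reads on the strand opposite to the gene. The matches in PSMC4, the gene that rose most, and in PSMD1, which also rose, lie after the start and are not shown. Upstream matches in PSMB9, PSMD5, PSMD9, PSME1, PSME2 and PSMG2, none of them called, are not shown either. The letters CCAAT were found in 21 of 44 genes, 47.7%, and in 39.7% of all genes, and GAANNTTC, a core of the heat shock element, was found in 0 of 44 and in 8.21% of all genes. A match of letters is a description and not a bound site, and a gene without one may hold it outside this window or in letters not searched.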

How the data were processed

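RNA from 8 samples of MM.1S cells was sequenced, and groups follow the sample labels. In the submitters' processing notes the tools are HISAT2, StringTie and RSEM, with edgeR and DESeq2, and the build is GRCh38.p13. Versions, roles, annotation and any filter are not given in the sources at hand. The authors deposited 2 tables, and their sample columns, whose headers name no unit, were read as TPM from their sums. Columns with the authors' own means per group and results of their comparisons were not used. TPM hold no counts, so that the depth per sample is unknown and no counting interval can be given.

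Both tables list the same genes and their sums differ by under 1%, and groups were compared across them. Sums this close follow from scaling each sample to a common total, so that they do not show that the tables were processed alike. A gene entered the test if some group averaged 1 TPM or more, in 1 fit of all 8 samples with limma-trend (limma 3.58.1, R 4.3.3) on log2(TPM + 1), two-sided, with 4 residual degrees of freedom and Benjamini-Hochberg adjustment over all 14812 genes. The log2 fold changes are on this scale and understate the change of low genes. Calls used the limits of the study's own volcano plot, 0.05 for the adjusted p and 1.5 for the fold. The fit was tested on simulated data with known changes. Positions, exon lengths and overlaps come from GENCODE release 29, which holds 96.3% of the gene IDs, and 32 pseudogenes carry the names of 12 of the 50 genes.

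The 50 genes and the 3 further lists were chosen with earlier results of these data known, as was the rule for named genes: per role the 2 smallest and the largest adjusted p for BTZ against vehicle, all genes in roles of up to 5, PSMB5, PSMB6, PSMB7, PSMD12 and PSMD14, and up to 4 genes of each further list with 1 that moved the other way. PSMA2, PSMA4, PSMC1, PSMD2, PSMD3, PSMD7 and some genes of the further lists were named after their values were seen. Alternatives are given after this section. The removal of a length trend, the rescaling without mitochondrially encoded genes and a crossed pairing, were chosen after seeing the data. Figures were drawn with matplotlib 3.10.9.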

Additional observations from a re-analysis of the deposited data

How the results depend on the processing

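Each comparison was refitted with 0.1 as the pseudocount, without the filter, with scaling by the median of ratios, only the 2 groups compared, limma without the trend, other call rules, a replicate block and each sample left out, and, chosen after seeing the data, without the length trend, without the mitochondrially encoded genes or with a crossed block. Over these, 224 values for counts and medians stayed close to those reported and 48 moved, and for single genes 1134 stayed on their side of the call, 123 lost it, 15 gained it and 17 changed sign. These totals do not measure stability, since several refits keep the group means and many of the values that stayed are of genes not called. The cause was not tested where a value moved.

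With 1 sample left out, genes called higher with BTZ ran from 2 to 29, and with BTZ plus FeAc against FeAc from 1 to 28, genes called lower ran from 0 to 1 and from 0 to 4, and medians from 0.71 to 1.02 and from 0.72 to 0.97 on the log2 scale. The lowest counts of genes called higher came in fits where the calls over all genes fell too. The median ran from -0.11 to 0.14 for FeAc against vehicle and from -0.17 to 0.078 for the interaction. Genes called lower with BTZ, reported as 0, were 1 by the median of ratios (PSMG1), 3 with only the 2 groups and 3 by unadjusted p (PSMB9, PSMG1 and PSMG4 in both). For BTZ plus FeAc against FeAc, 16 were called higher with no filter and 3 with only the 2 groups, beside 339 and 89 of all genes. There the 1 gene called lower, PSMB8, became 0 with no filter, by the median of ratios, with only the 2 groups, without the trend and without the length trend, and 4 by unadjusted p, and the median was 1.05 by the median of ratios and 0.99 without the length trend. By unadjusted p, 1 gene was higher with FeAc (NFE2L1) and 2 were lower in the interaction (PSMF1 and NFE2L1), whose median was 0.068 by the median of ratios.

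Signs changed in genes near 0. With 1 sample left out, values for BTZ against vehicle ran over -0.017 to 0.058 for PSMB10, -0.084 to 0.024 for PSMD5 and -0.35 to 0.10 for DDI2, those for BTZ plus FeAc against FeAc over -0.15 to 0.28 for PSMB10, -0.026 to 0.076 for PSMD5, -0.026 to 0.33 for PSMD9 and -0.41 to 0.19 for PSMG4, and those of NFE2L1 in BTZ plus FeAc against BTZ over -0.27 to 0.045. Without mitochondrially encoded genes PSMB10 was -0.046 with BTZ and -0.036 with BTZ plus FeAc against FeAc, and PSMD5 was -0.070 in the latter. PSMD5 with BTZ was 0.033 by the median of ratios and 0.029 without the length trend, and PSMG4 with BTZ plus FeAc against FeAc was 0.077 and 0.078.

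The labels share replicate numbers, but samples of the same number did not deviate together (correlations from -0.148 to 0.186 between groups), so that the numbers were not taken to pair samples. With the replicate block 28 genes were called higher and 0 lower with BTZ, and 28 and 1 with BTZ plus FeAc against FeAc. With the FeAc numbers crossed in the block, these counts were 31 and 2 in both comparisons.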
